A study of Mus musculus with 6 samples.

Results

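The genes of synaptic vesicles and of regulated exocytosis were examined as a set of 40 members, taken by gene name from the 54532 genes of a count table of sciatic nerve RNA. The members were grouped by role into 10 vesicle membrane genes, 9 calcium sensors, 6 SNAREs and complexins, 11 active zone and priming genes and 4 dense-core granins. The table holds 3 control mice (genotype WT) and 3 Dok6 mutant mice (genotype Dok6 KO) at postnatal day 3, with 1 library per mouse. The mutants carry a germline deletion of exon 3 of Dok6, an adapter protein of receptor tyrosine kinases, made by crossing floxed Dok6 mice with EIIA-cre mice, in which Cre acts from the early embryo. Both genotypes were kept on a C57BL/6 background, and the labels name no agent. The deletion is present in every cell type, so the comparison does not separate neurons from glia. The labels name the mice as separate samples and do not say whether tissue was pooled.

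Transmitter is packed into synaptic vesicles, which dock at the active zone, are primed, and fuse when calcium enters the terminal. Fusion is driven by the SNARE proteins, syntaxin and SNAP-25 on the plasma membrane and VAMP on the vesicle, under the control of complexins and of synaptotagmins, many of which bind calcium. Neuropeptides are released from a different organelle, the dense-core vesicle, whose core is built by granins. The transcripts of these genes are made mostly in the cell bodies of neurons, whereas a peripheral nerve holds axons, Schwann cells, fibroblasts and vessels.

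All 40 members had a row in the table and passed the filter on low counts, and 39 were at 1 CPM or more in every library. CPM, counts per M counts, are relative here to library sizes scaled by the TMM method. The exception was Slc17a9. Members took between 0.883% and 1.05% of the counts of a library, and 25 of them were among the top 10% of tested genes by mean CPM. The 6 libraries held between 17699904 and 18678170 counts, so that 3 counts, the smallest level taken as detectable, were between 0.156 and 0.172 CPM. This floor covers counting error only. In GENCODE M21 exons of Doc2a, Doc2b, Pclo, Rab3a, Sv2b, Syn1, Syn2, Syn3, Syp, Syt4, Syt7 and Unc13a overlap those of a gene on the opposite strand and exons of Bsn those of a gene on the same strand, and Syt11 matches another transcript closely, so the counts of these 14 members are less certain. Across mice of a genotype the median coefficient of variation of a member was 9.69% in the controls and 8.35% in the mutants.

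The targeted gene was lower in all mutant libraries. Dok6 was at 17.8, 11.9 and 17.5 CPM in control mice 1, 2 and 3 and at 7.26, 5.78 and 7.15 in Dok6 mutant mice 1, 2 and 3, for a log2 fold change of -1.23 (standard error, SE, 0.20; adjusted p = 0.0118 in edgeR's quasi-likelihood test, adjusted after Benjamini and Hochberg over 17099 genes). The counts include exons that the deletion leaves in place.

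The tissue label was checked against marker genes, because levels of neuronal genes depend on which cells were collected. Of 16 markers of Schwann cells, the glia of peripheral nerve, 12 were at 1 CPM or more in every library. Markers of astrocytes, a cell type of the central nervous system, summed to between 2312 and 4420 CPM per library, and all 10 were at 1 CPM or more in every library. A list of 12 spinal cord and brain neuron markers, which includes the vesicular transporter genes Slc17a6 and Slc32a1, summed to between 1590 and 1798 CPM in the controls and to between 1313 and 1461 CPM in the mutants. Every gene of this list had a negative log2 fold change, and 3 of the 12 fell. The libraries therefore held central nervous system transcripts in both genotypes, which the label of sciatic nerve does not account for.

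**Figure D1:**
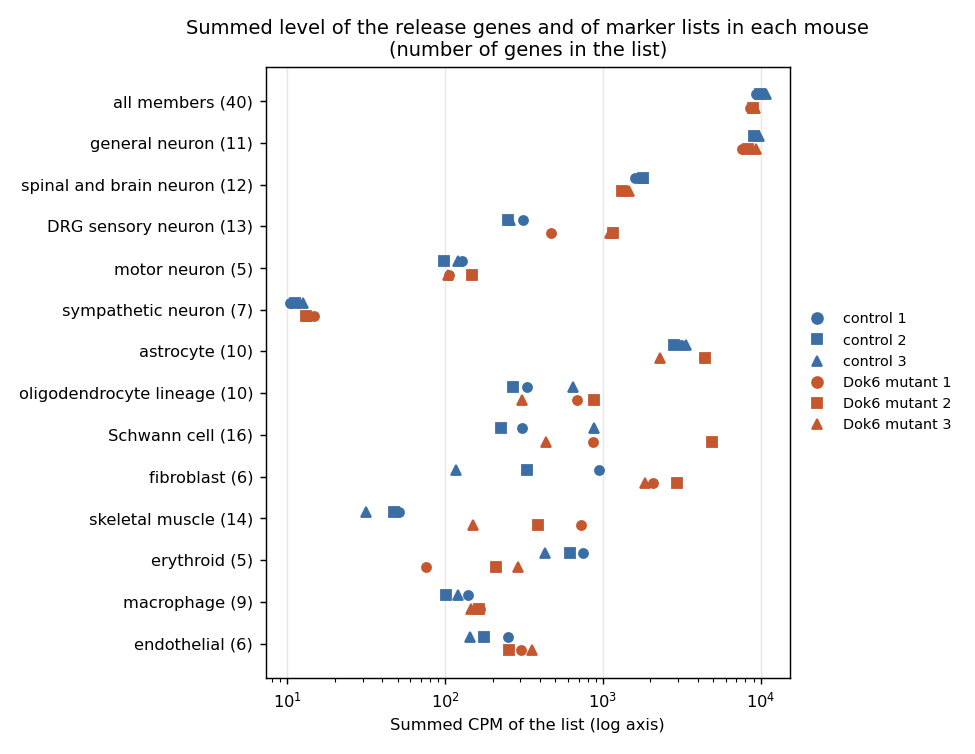
Summed CPM (log axis) of the 40 release genes, drawn as all members, and of 13 marker lists, one point per mouse, with the number of genes of a list in brackets. The astrocyte sums lie between 2312 and 4420 CPM and the sums of the release genes between 9316 and 10775 CPM in the controls and between 8560 and 9150 CPM in the mutants, while the muscle and fibroblast sums are higher in every mutant than in every control mouse.

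Some other marker lists separated the genotypes more widely than the release genes did. Of the markers of dorsal root ganglion (DRG) sensory neurons, 11 of 12 tested rose, and their sum went from between 251 and 310 CPM in the controls to between 470 and 1164 CPM in the mutants. Skeletal muscle markers rose in 11 of 12 tested, from between 31.5 and 50.7 CPM to between 151 and 731 CPM, while limma voom called 5 of 12. Fibroblast markers rose in 4 of 6, from between 117 and 950 CPM to between 1839 and 2942 CPM. Schwann cell markers rose in 7 of 16, while limma voom called 1 of 16. Their sums overlapped, at 308, 225 and 873 CPM in control mice 1, 2 and 3 and 869, 4929 and 433 CPM in mutant mice 1, 2 and 3. Endothelial markers rose in 2 of 6, and motor neuron markers in 1 of 5, with 1 other falling. Erythroid markers fell in 4 of 5, from between 431 and 746 CPM to between 75.4 and 290 CPM. None of the 9 tested oligodendrocyte lineage genes, the 10 astrocyte genes, the 9 macrophage genes or the 3 tested sympathetic neuron genes passed edgeR's quasi-likelihood test. At an unadjusted p under 0.05 these were 1, 0, 3 and 0 genes, and DESeq2 called 2 macrophage genes and none of the others. Of the sympathetic markers Dbh and Slc6a2 stayed under 0.47 CPM in every library, and Hand2 was detected in mutant mouse 1 alone, at 4.93 CPM. The 11 general neuron markers summed to between 9078 and 9803 CPM in the controls and between 7648 and 9347 CPM in the mutants, so that the genotypes overlapped, and none passed the test (3 at an unadjusted p under 0.05, 2 called by DESeq2). The part of these cell types in the results below was not tested. In such bulk samples, fewer cells of a type and less RNA per cell cannot be told apart.

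Levels were compared between members after division by gene length, as CPM per kb of the length given by the authors. In the control mice the order was led by Cplx1, a complexin that clamps and then promotes fusion, at 229 ± 28.3 CPM per kb (SD, n = 3 mice), and by Rab3a, the main vesicle-bound Rab GTPase, at 219 ± 15.3 CPM per kb. These neighbours did not differ beyond their spread. Vamp2, the vesicle SNARE of central synapses, followed at 167 ± 10.9 CPM per kb, below both of them by more than its own SD. Syn1, which tethers vesicles to the cytoskeleton, was at 133 ± 15.6 CPM per kb and Syt11 at 111 ± 10.8. Scg2, Syp and Chga then stood together at 105, 105 and 102 CPM per kb, a difference smaller than the spread of each. The lowest levels per kb were those of Syn3 (2.74), Unc13b (1.24) and Slc17a9 (0.388), each apart from the next by more than its SD.

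**Figure D2:**
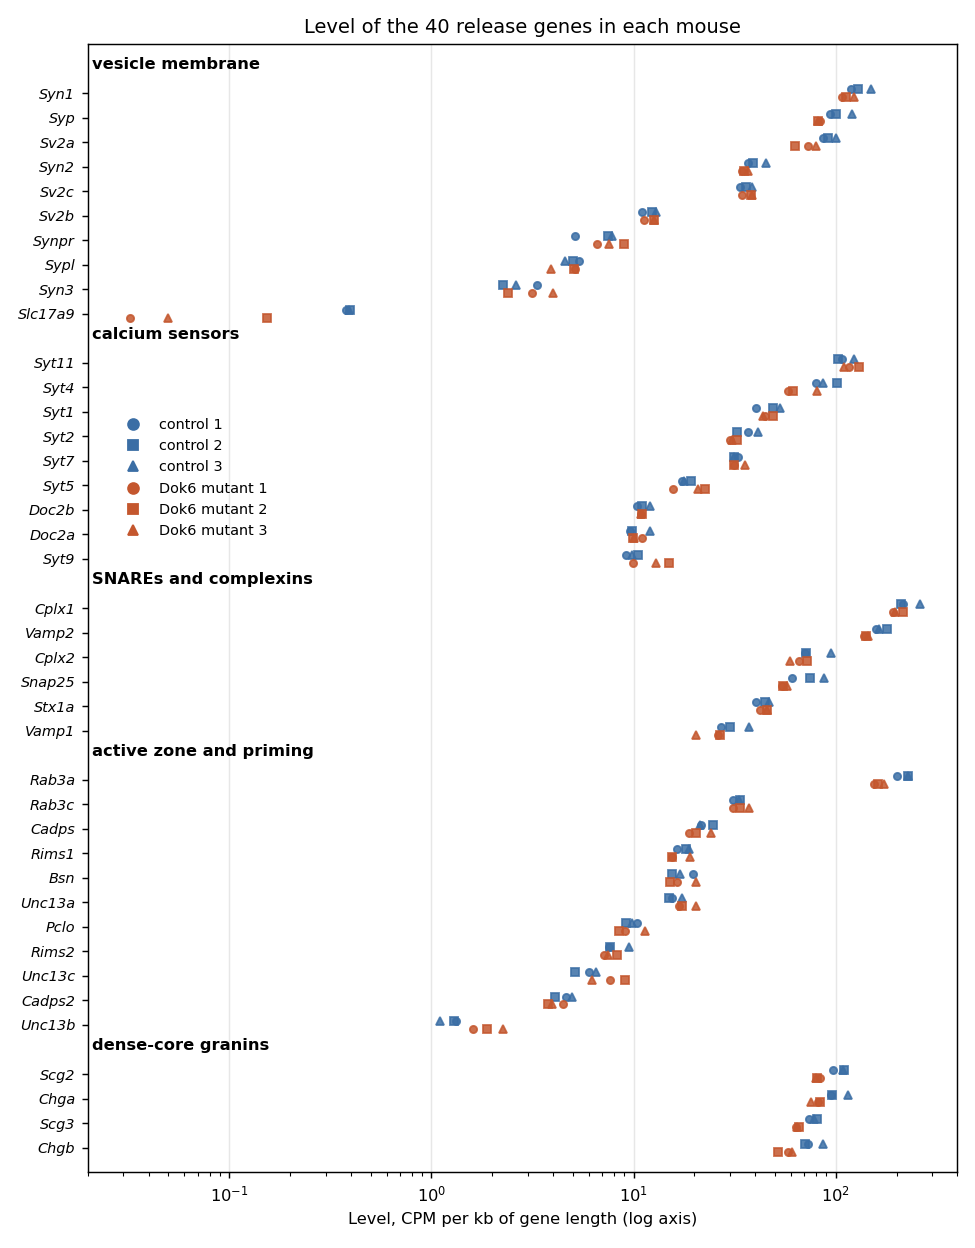
Level of each of the 40 release genes in CPM per kb of gene length (log axis), one point per mouse, ordered within role by the control mean. Levels reach from 0.388 CPM per kb for Slc17a9 to 229 for Cplx1 in the control means, and the genotypes do not overlap for 14 members, 13 lower in the mutants, among them the 4 granins, Rab3a and Slc17a9, and 1 higher, Unc13b.

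Between genotypes the members that passed the test were mainly lower in the mutants. The TMM-scaled sum of all members was 9316, 9866 and 10775 CPM in control mice 1, 2 and 3. In mutant mice 1, 2 and 3 it was 8560, 8924 and 9150 CPM, with no overlap. As a share of all counts, without TMM scaling, the genotypes overlapped. The members were then at 0.917%, 0.966% and 1.05% in the controls and 0.883%, 0.900% and 0.930% in the mutants. The scaled sum of all genes tested was itself 4.01% lower in the mutants, against 11.1% for the members. Of the 40 members 1 rose, Unc13b, and 6 fell, namely the 4 granins, Rab3a and Slc17a9, at an adjusted p under 0.05 in edgeR's quasi-likelihood test. This is 2.5% of the members higher and 15% lower, against 8.62% of all 17099 genes tested that were higher and 6.01% that were lower by the same rule. The median log2 fold change of the members was -0.10, with 13 positive and 27 negative values, against 0.01 over all genes tested. At an unadjusted p under 0.05, 3 members were higher and 13 lower. The share of all genes tested at an unadjusted p was not taken. Counts of this kind, here and elsewhere in the text, therefore have no background and are not read as particular to the members. The genotypes did not overlap for 13 members that were lower and 1 that was higher in the mutants, 32.5% and 2.5% of the members, where 18.7% and 19.6% of all genes tested did so. Of the 33 members that did not pass, 21 had an absolute log2 fold change of at most 0.2, and all lay between -0.42 and 0.38.

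These calls depended on single libraries. Without control mouse 2 or without control mouse 3 no member passed edgeR's test, while 12 and 14 members had an unadjusted p under 0.05. In the whole table, 56 genes were higher and 12 lower without control mouse 2, and 1006 higher and 621 lower without control mouse 3. Without mutant mouse 1 only Unc13b passed, without mutant mouse 2 only Slc17a9, and without control mouse 1 the 4 members Rab3a, Scg2, Snap25 and Unc13b. Over all genes, 695 were higher and 193 lower without mutant mouse 1, and 549 and 174 without mutant mouse 2. Without control mouse 1 they were 978 and 630. Without mutant mouse 3, 7 members passed, of which Unc13c and Unc13b were higher and Chgb, Rab3a, Scg2, Sv2a and Syt4 lower. In this fit 1671 of all genes were higher and 1233 lower. The direction of each of the 7 members called with all mice was the same in all 6 fits. DESeq2 called 12 members, the 7 above and Snap25, Sv2a, Syp, Syt4 and Vamp2, all 5 of them lower. Over all genes it called 1771 higher and 1427 lower.

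**Figure D3:**
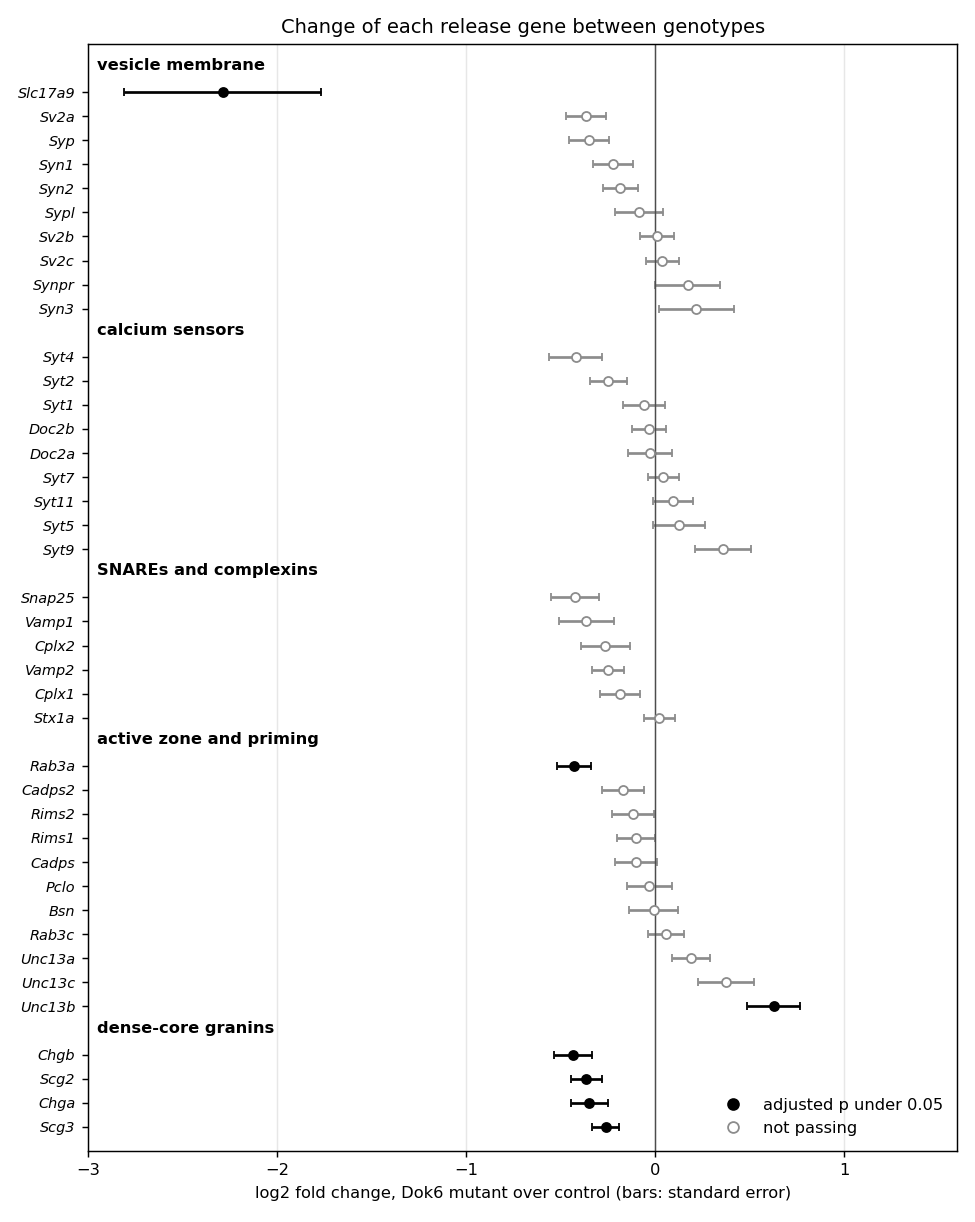
Log2 fold change of each member, Dok6 mutant over control, with its standard error from edgeR's quasi-likelihood fit of 3 against 3 mice. Filled points passed at an adjusted p under 0.05, which holds for all 4 granins, Rab3a and Slc17a9 on the lower side and for Unc13b on the higher side.

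The granins gave the most uniform change of the roles. These acidic proteins aggregate in the Golgi and form the core of dense-core vesicles, and Chga, Chgb and Scg2 are also cut into peptides, while Scg3 links the aggregate to the membrane. All 4 fell, and in each the genotypes did not overlap. Chga (ENSMUSG00000021194, chr12:102554969-102565028 of GRCm38) was at 261, 266 and 318 CPM in control mice 1, 2 and 3 and at 226, 231 and 207 CPM in mutant mice 1, 2 and 3. The lowest control lay above the highest mutant, and the log2 fold change was -0.35 (SE 0.10, adjusted p = 0.0495). Chgb (ENSMUSG00000027350, chr2:132781278-132795079) was at 200, 193 and 237 CPM in the controls and at 159, 143 and 166 CPM in the mutants, and the log2 fold change came to -0.43 (SE 0.10, adjusted p = 0.0279). Control mouse 3 was the highest for both of these genes. Scg2 (ENSMUSG00000050711, chr1:79434669-79440120) was at 242, 277 and 273 CPM in the controls and at 211, 203 and 202 CPM in the mutants. Its log2 fold change was -0.36 (SE 0.08, adjusted p = 0.025), and the mutants differed by less than 10 CPM. Scg3 (ENSMUSG00000032181, chr9:75643189-75684056) was at 202, 222 and 213 CPM in the controls and at 175, 180 and 176 CPM in the mutants, for a log2 fold change of -0.26 (SE 0.07, adjusted p = 0.0445).

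The summed level of the granins was 905, 958 and 1041 CPM in the controls and 771, 757 and 751 CPM in the mutants, 21.5% lower in the mean. The calls of Chga and Scg3 were close to the threshold. Chga had an adjusted p of 0.0525 with upper-quartile scaling and 0.051 with at least 10 counts in each library, and Scg3 one of 0.0717 without the filter. In fits without 1 mouse, the highest adjusted p was 0.121 for Chga, 0.0947 for Chgb, 0.11 for Scg2 and 0.167 for Scg3, while their log2 fold changes stayed between -0.49 and -0.23. Set against the summed general neuron markers, the granins were at 9.89%, 10.6% and 10.6% in the controls and at 10.1%, 9.08% and 8.03% in the mutants, with mutant mouse 1 inside the control range (exact permutation test, two-sided p = 0.2). Against the spinal cord and brain neuron markers, which also were lower in the mutants, the share was 56.2 ± 2.16% in the controls and 55.2 ± 3.35% in the mutants (SD, n = 3 mice each; exact permutation test, two-sided p = 0.6). With 3 mice against 3 this test cannot give a p below 0.1. These ratios were chosen after the values had been seen.

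**Figure D4:**
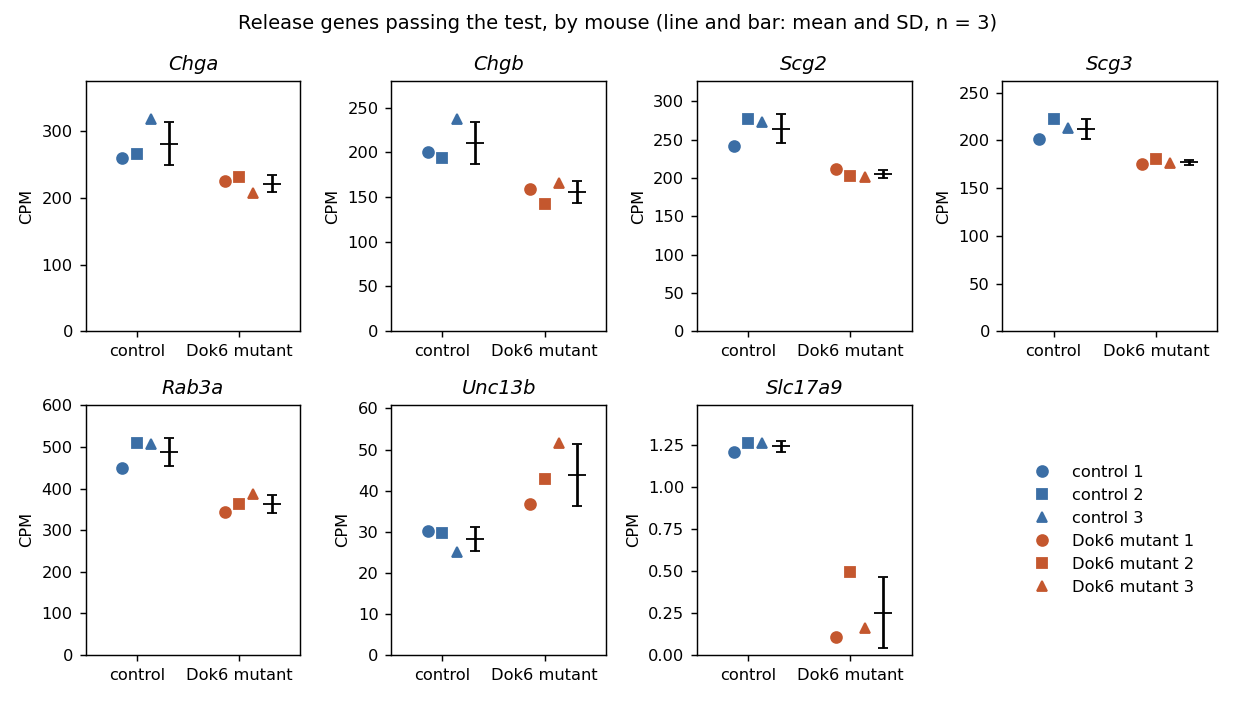
CPM of the 7 members that passed the test in each mouse, with the mean and SD of 3 mice beside the points and every axis starting at 0. In all panels the mutants lie on one side of the controls, lower in 6 genes and higher in Unc13b, where they reach from 36.6 to 51.6 CPM against 25.0 to 30.2.

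A search of promoters was made for the cAMP response element, the binding sequence of CREB, which is a known control element of granin genes. The 8-base palindrome TGACGTCA was sought in the 250 bases before each transcription start of RefSeq (GRCm38.p6). It was found in 1.55% of 32851 promoters and in 3 of the 39 promoters listed for 30 of the members, those of Chgb, Scg2 and Syn1. With the letters TGACGTNA on either strand, a pattern relaxed after these sequences had been read and one that takes in the palindrome, the share was 2.52% of all promoters, and those of Chga and Rab3a were added. Of the other called members, Scg3 and Unc13b had 1 listed promoter each, with no match to either pattern, and Slc17a9 had none listed. The windows are shown for the called members with a match, 3 granins and Rab3a, and for Syn1, with the matched bases in capitals.
Chgb: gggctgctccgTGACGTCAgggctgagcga
Scg2: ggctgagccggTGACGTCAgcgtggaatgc
Syn1: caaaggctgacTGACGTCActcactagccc
Chga: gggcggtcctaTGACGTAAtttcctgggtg
Rab3a: agtccctccccTAACGTCAcagcttcgttt

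In these windows the match begins 72 bases before the RefSeq start in Chgb (chr2:132781559-132781588, plus strand) and 68 bases before it in Scg2 (chr1:79440076-79440105, minus strand). It begins 159 bases before the start in Syn1 (chrX:20921059-20921088, minus strand), 44 in Chga (chr12:102554886-102554915, plus strand) and 39 in Rab3a (chr8:70754653-70754682, plus strand). GENCODE M21 has transcripts that start farther upstream in Chgb and Scg2, so that these windows lie in an annotated first exon there, outside the coding part. The Rab3a site reads on the opposite strand. A match describes the letters alone, and Syn1, which holds the full palindrome, did not pass the test (log2 fold change -0.22, SE 0.11, adjusted p = 0.182).

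Among the active zone and priming genes, Rab3a fell and Unc13b rose, and the other 9 did not pass. Rab3a (ENSMUSG00000031840, chr8:70754679-70758677) recruits the vesicle to the active zone through RIM proteins. It was at 449, 510 and 507 CPM in control mice 1, 2 and 3 and at 343, 362 and 386 CPM in mutant mice 1, 2 and 3, with no overlap. Its log2 fold change was -0.43 (SE 0.09, adjusted p = 0.0221 in edgeR's test) and stayed between -0.48 and -0.39 in the fits without 1 mouse, where the adjusted p reached 0.101 without control mouse 2. Exons of Mpv17l2 on the opposite strand overlap those of Rab3a, and whether strand was used in counting is not given in the sources used here. Rab3c, a paralog on the same vesicles, was at 393 ± 16.9 CPM in the controls and 409 ± 38.8 CPM in the mutants (SD, n = 3 mice), for a log2 fold change of 0.06 with a SE of 0.09 (adjusted p = 0.697).

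Unc13b (ENSMUSG00000028456, chr4:43058953-43264871) encodes Munc13-2, a priming factor that opens syntaxin for SNARE assembly. It was at 30.2, 29.6 and 25.0 CPM in the controls and at 36.6, 42.9 and 51.6 CPM in the mutants. Every mutant lay above every control, mutant mouse 3 being the highest, and the log2 fold change was 0.63 (SE 0.14, adjusted p = 0.0254). In fits without 1 mouse it stayed between 0.49 and 0.74, with the highest adjusted p, 0.096, without control mouse 2. The related primers Unc13a and Unc13c had log2 fold changes of 0.19 (SE 0.10) and 0.38 (SE 0.15) with overlapping genotypes, and adjusted p-values of 0.227 and 0.116. The scaffolds of the active zone, which hold calcium channels and vesicles together, were nearly equal. Bsn was at 277 ± 33.8 CPM in the controls and 276 ± 42.8 CPM in the mutants, and Pclo at 221 ± 13.5 and 216 ± 35.3 CPM (SD, n = 3 mice). Rims1 and Rims2, which link Rab3 to calcium channels, had log2 fold changes of -0.10 and -0.11, and Cadps and Cadps2, primers of dense-core vesicles, of -0.10 and -0.17, each with a SE between 0.10 and 0.11.

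Slc17a9 (ENSMUSG00000023393, chr2:180725263-180742280), the vesicular nucleotide transporter that loads ATP into vesicles, had the largest fold change of the members at the lowest level. It had 21, 22 and 22 counts in the controls and 2, 9 and 3 counts in the mutants, or 1.20, 1.26 and 1.26 CPM against 0.104, 0.491 and 0.159 CPM. The log2 fold change of -2.29 (SE 0.52, adjusted p = 0.0259) made it the 1 member that passed the test with an absolute log2 fold change above 2, where 0.111% of all genes tested passed both this limit and the adjusted p of 0.05 on the lower side. On the pooled counts, 65 in the controls and 14 in the mutants, the level was 5.01 times higher in the controls, with an exact 95% interval of 2.78 to 9.67 that covers counting error only. Mutant mouse 1 was under the floor of 3 counts and mutant mouse 3 at it. Slc17a9 passed the filter on low counts through the controls alone. The direction and the size of its change are therefore not free of the filter. The log2 fold change was -3.18 without mutant mouse 2 and -1.92, inside the limit of 2, without mutant mouse 1. The adjusted p was 0.0291 without mutant mouse 2 and between 0.0514 and 0.105 without any other mouse.

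None of the other 9 vesicle membrane genes passed the test (2 of them at an unadjusted p under 0.05, both lower), while DESeq2 called 2, Syp and Sv2a. Syp encodes synaptophysin, an abundant 4-pass protein of the vesicle membrane. It was at 491, 521 and 629 CPM in control mice 1, 2 and 3 and at 438, 424 and 425 CPM in mutant mice 1, 2 and 3. The genotypes did not overlap, and control mouse 3 was the highest. Its log2 fold change was -0.35 (SE 0.11, adjusted p = 0.0574), and exons of another gene lie on its opposite strand. Sv2a, a glycoprotein that modulates release, was at 399, 427 and 464 CPM in the controls and at 338, 293 and 369 CPM in the mutants, again without overlap (log2 fold change -0.37, SE 0.11, adjusted p = 0.0526). The synapsins Syn1 and Syn2 had log2 fold changes of -0.22 and -0.18 and Syn3 of 0.22, with SEs of 0.11, 0.09 and 0.20. Sv2b and Sv2c, at 0.01 and 0.04, were the closest to 0, and Synpr and Sypl, relatives of synaptophysin, were at 0.17 and -0.08.

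The 9 genes grouped as calcium sensors are synaptotagmins and Doc2 proteins, of which Syt4 and Syt11 are atypical and bind calcium weakly or not at all. None of the 9 passed edgeR's test, with 3 at an unadjusted p under 0.05 and 1, Syt4, called by DESeq2. Syt1 and Syt2 are the fast sensors of synchronous release. Syt1 was at 338, 410 and 442 CPM in the controls and at 371, 409 and 363 CPM in the mutants, for a log2 fold change of -0.06 (SE 0.11). Syt2 was at 281, 249 and 316 CPM in the controls and at 230, 247 and 235 CPM in the mutants. Its groups met closely but did not overlap, and the log2 fold change was -0.25 (SE 0.10, adjusted p = 0.121). Syt4, a synaptotagmin of dense-core vesicles, was at 313, 397 and 336 CPM in the controls and at 227, 241 and 314 CPM in the mutants. Mutant mouse 3 lay inside the control range, and the log2 fold change was -0.42 (SE 0.14, adjusted p = 0.0764). Syt9 went the other way, at 36.6, 41.8 and 39.0 CPM in the controls and 39.7, 59.7 and 51.3 CPM in the mutants, for a log2 fold change of 0.36 (SE 0.15, adjusted p = 0.124). Syt5, Syt7, Syt11, Doc2a and Doc2b lay between -0.03 and 0.12 on the log2 scale, with SEs between 0.08 and 0.14.

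The 6 SNAREs and complexins also gave no call in edgeR's test, while 3 had an unadjusted p under 0.05 and DESeq2 called 2, Snap25 and Vamp2. Snap25 was at 412, 506 and 597 CPM in the controls and at 367, 373 and 390 CPM in the mutants. All mutants lay below all controls, but the controls spread widely, and the log2 fold change of -0.42 had a SE of 0.13 (adjusted p = 0.0594). Vamp2 was at 604, 684 and 623 CPM in the controls and at 525, 535 and 550 CPM in the mutants (log2 fold change -0.25, SE 0.09, adjusted p = 0.0823). Vamp1, the VAMP of motor terminals, was at 276, 305 and 381 CPM in the controls and at 266, 273 and 207 CPM in the mutants (log2 fold change -0.36, SE 0.15, adjusted p = 0.119). Stx1a, the plasma membrane partner in the same complex, was at 117 ± 8.27 CPM in the controls and 119 ± 5.20 CPM in the mutants (SD, n = 3 mice), for a log2 fold change of 0.02 (SE 0.08). Cplx1 and Cplx2 had log2 fold changes of -0.19 and -0.26 with overlapping genotypes. The sum of the 6 genes was 2216, 2427 and 2761 CPM in the controls and 2013, 2128 and 1993 CPM in the mutants. As a share of the general neuron markers, this sum was 26.4 ± 2.00% in the controls and 24.4 ± 2.69% in the mutants (SD, n = 3 mice each; exact permutation test, two-sided p = 0.4). Against the spinal cord and brain neuron markers it went the other way, with 143 ± 9.24% in the controls and 149 ± 12.9% in the mutants, and the genotypes overlapped (exact permutation test, two-sided p = 0.6).

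The same ratios were taken for the vesicle membrane genes and for all members. Against the general neuron markers both overlapped between genotypes, with 24.5 ± 1.47% in the controls and 23.8 ± 1.53% in the mutants for the vesicle membrane genes and 107 ± 4.37% and 106 ± 7.12% for all members (SD, n = 3 mice; exact permutation test, two-sided p = 0.7 and 0.8). Against the spinal cord and brain neuron markers both were higher in every mutant than in every control mouse. The vesicle membrane genes were at 133 ± 7.53% in the controls and 145 ± 3.93% in the mutants, and all members at 579.8 ± 23.3% and 645 ± 30.5% (exact permutation test, two-sided p = 0.1 for both, the smallest that 3 mice against 3 allow). For both sums the sign of the difference between the means changed with the marker list.

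Paralogs of a family can take each other's place on the vesicle, so the share of each in its family was computed from levels per kb in each mouse. Such a share does not change with the scaling of the libraries. Rab3a made up 86.7%, 87.2% and 87.3% of the summed Rab3a and Rab3c level in control mice 1, 2 and 3 and 83.2%, 82.9% and 82.2% in mutant mice 1, 2 and 3, without overlap. With the paralogs that are no members, Rab3b and Rab3d, counted in, the Rab3a share was 77.8 ± 0.222% in the controls and 72.2 ± 0.711% in the mutants, that of Rab3c 11.6 ± 0.316% and 15.0 ± 0.494%, and that of Rab3d 2.04 ± 0.252% and 4.79 ± 1.11% (SD, n = 3 mice), all without overlap. The Rab3b share, 8.56 ± 0.431% and 8.02 ± 0.974%, overlapped, and Rab3b, named after its values had been seen, fell like Rab3a, with a log2 fold change of -0.42 (SE 0.11, adjusted p = 0.0344), which passed in 1 of the 6 fits without 1 mouse. In the SV2 family Sv2a made up 65.8 ± 0.260% in the controls and 59.2 ± 3.33% in the mutants, while Sv2c went from 25.6 ± 0.191% to 30.7 ± 2.45% and Sv2b from 8.60 ± 0.211% to 10.1 ± 0.878% (SD, n = 3 mice), all without overlap. Unc13b made up 5.84%, 6.09% and 4.39% of the Munc13 family in the controls and 6.20%, 6.66% and 7.88% in the mutants, again without overlap. Shares within the synapsin, VAMP, complexin, RIM and CAPS families and between Syt1 and Syt2 overlapped between genotypes. With 3 mice against 3 no overlap gives the smallest p an exact permutation test of such a share allows, 0.1, two-sided. The shares of Rab3a and Unc13b were computed from the values that gave their calls and are no separate support. No background of shares over other gene families was taken.

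**Figure D5:**
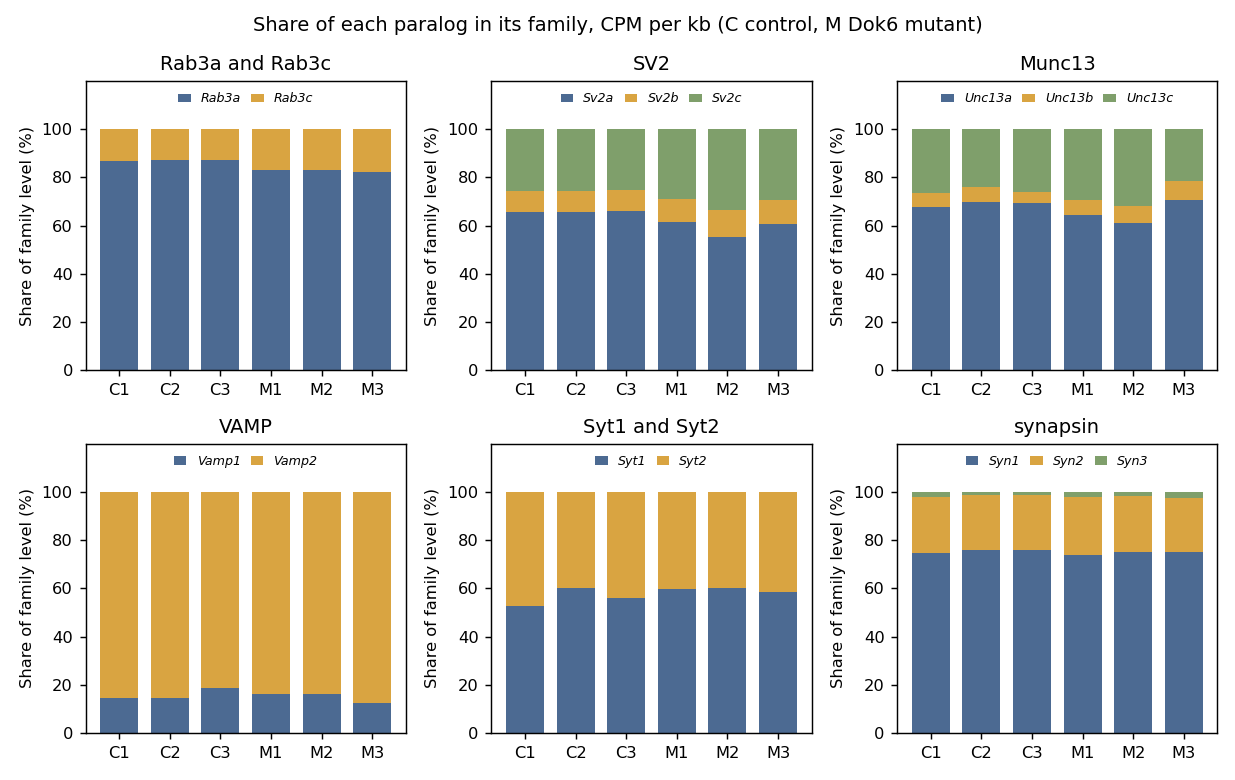
Share of each paralog in the summed level (CPM per kb) of its family, in percent, for control mice (C1 to C3) and Dok6 mutant mice (M1 to M3). The Rab3a share of Rab3a and Rab3c lies between 86.7% and 87.3% in the controls and between 82.2% and 83.2% in the mutants, and the Sv2a share has a mean of 65.8% in the controls and 59.2% in the mutants, while the VAMP, Syt1 and Syt2, and synapsin shares overlap.

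A list of 114 other genes of vesicle release was measured beside the members, of which 108 passed the filter. Of these 10 rose and 15 fell, or 9.26% and 13.9%, with a median log2 fold change of -0.09, and shares of all genes tested by the same rule were 8.62% and 6.01%. Among 23 other vesicle and endocytic proteins 2 rose and 6 fell, among 31 other SNAREs and fusion regulators 4 and 3, and among 18 other synaptotagmins and C2 proteins 3 and 3. Other dense-core vesicle proteins fell in 2 of 11, and 1 of 25 other active zone and Rab proteins rose and 1 fell.

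The 8 genes with the largest absolute change among those of the list that passed, reached 1 CPM in each library of the higher genotype and did not overlap were all higher in the mutants. This rule asks for a level in the higher genotype alone and favours genes near 0 in the other. The shared direction is therefore not read as a result. Those under 1 CPM in every control, Slc17a7 and Sytl3, met the limit through the mutants alone. Slc17a7, the vesicular glutamate transporter VGLUT1, was at 0.975, 0.401 and 0.515 CPM in the controls and at 3.16, 9.49 and 8.80 CPM in the mutants, for a log2 fold change of 3.49 (SE 0.50, adjusted p = 0.00918). Dysf and Myof, ferlins best known from muscle membrane repair, had log2 fold changes of 1.62 and 1.46, and Vamp5, a VAMP abundant in muscle, one of 1.70. The muscle markers rose in the same mice, and so did the DRG sensory neuron markers. The part of muscle or DRG neuron RNA in the values of the 8 genes, Slc17a7 and Rab3d among them, was not tested. Sytl3, a synaptotagmin-like Rab effector, was at 1.91, the SNAREs Stx2 and Stx4a, both used outside synapses, at 1.22 and 0.65, and Rab3d, the Rab3 of secretory cells, at 0.93. The 15 genes that fell had smaller changes, from -0.61 to -0.31. Among them, and chosen after their values had been seen, were 2 further proteins of dense-core vesicles, Scg5, the chaperone of a prohormone convertase, at -0.49 (SE 0.11, adjusted p = 0.0279), and Resp18 at -0.50 (SE 0.12, adjusted p = 0.029). The transporters Slc18a3 for acetylcholine and Slc32a1 for GABA and glycine, chosen in the same way, were also lower, at -0.47 (SE 0.12, adjusted p = 0.0358) and -0.32 (SE 0.09, adjusted p = 0.0487). In the 6 fits without 1 mouse, Scg5 and Resp18 passed in 2 each, Slc32a1 in 1, and Slc18a3 in none, with adjusted p-values for Slc18a3 from 0.0639 to 0.0891. Without control mouse 2 none of the 108 genes passed, and the count ranged from 0 to 31 over the fits without 1 mouse.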

How the data were processed

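RNA of P3 sciatic nerves from 3 control and 3 Dok6 mutant mice was sequenced on an Illumina NovaSeq instrument. The labels name the NEBNext Ultra kit and the methods its directional version. The authors deposited raw read counts per gene, with a gene length. The build in the submitters' processing notes is mm10, and the aligner, the counter and the use of strand are not given in the sources used here.

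Genes were kept with filterByExpr by genotype (17099 of 54532), scaled by TMM and tested with edgeR 4.0.16 (R 4.3.3) by glmQLFit and glmQLFTest with no covariate, with Benjamini-Hochberg adjustment over the tested genes. The standard error came from the F statistic. The biological coefficient of variation was 16.6%, and no libraries agreed within sampling noise. P-values measure the spread between these mice. All members were named, and of the other release genes the 8 of largest change under the criteria given with them, plus 5 chosen after their values were seen. The members and lists were chosen with earlier results of these data known. DESeq2 1.42.0, limma 3.58.1 (voom), other scalings and filters, a replicate block and leaving out each mouse were the alternatives. Positions came from GENCODE M21 (GRCm38). Of the members, 13 share exonic bases with another gene, and 7 matched a transcript of another gene (BLAST 2.17.0, at least 95% identity over 200 bases), of which the called members were Rab3a for the first and none for the second. Some genes of the lists are not reported here by name.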

Additional observations from a re-analysis of the deposited data

How the results depend on the processing

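Of the 40 members, 12 passed with DESeq2 in place of 7, and from 0 to 7 in the fits without 1 mouse. RLE scaling gave 8, upper-quartile scaling 6, limma voom 8, leaving out the filter 10, and at least 10 counts in each library 5. Over all genes, RLE scaling called 1445 higher and 1125 lower, upper-quartile scaling 1494 and 1007, and limma voom 1344 and 1030. Leaving out the filter called 1884 and 1133 of 30965 genes, and at least 10 counts 1419 and 962 of 15537. Past a log2 fold change of 2, the count of members was 0 with at least 10 counts in every library, where Slc17a9 was not tested, and from 0 to 1 without 1 mouse. Of the other release genes, from 0 to 31 passed without 1 mouse, against 25. Deviations of same-numbered mice correlated between -0.29 and -0.01, and no mouse correlated best with its own number, so the numbers were not taken to pair the mice. The controls are described as littermates, and which mice shared a litter is not given. With the replicate number as a block, 0 members passed edgeR's test (13 at an unadjusted p under 0.05), 0 passed the fold threshold, and 4 other release genes passed. Over all genes this fit called 432 higher and 130 lower. The 7 called members kept their direction in all settings that tested them. Some members near 0 changed sign, namely Sv2b with DESeq2 (-0.0014) and Bsn with at least 10 counts (0.0012). Without 1 mouse, log2 fold changes ranged from -0.15 to 0.034 for Sypl, -0.054 to 0.066 for Sv2b, -0.006 to 0.091 for Sv2c, -0.16 to 0.031 for Syt1, -0.019 to 0.075 for Syt7, -0.086 to 0.087 for Doc2a, -0.075 to 0.032 for Doc2b, -0.0304 to 0.0701 for Stx1a, -0.18 to 0.0042 for Rims2, -0.14 to 0.091 for Bsn, -0.17 to 0.057 for Pclo and -0.018 to 0.12 for Rab3c. The cause of these differences was not tested. Depth limits Slc17a9 alone among the members, the others having at least 25.0 CPM in every library.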
